A study of Mus musculus with 6 samples.

Results

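The genes described here encode proteins of the mitochondrial ribosome in frontal cortex of mouse embryos. They were taken by symbol from the probe annotation of the array, as every gene called Mrpl or Mrps with a number and an optional final letter. The rule found 76 genes with 110 probes among 16593 named genes. 47 are Mrpl genes, named for the large subunit, and 29 are Mrps genes, named for the small subunit. Each gene was represented by its probe of highest mean over the 6 arrays, and 22 genes had several probes. The rule itself uses symbols and no difference between the groups, but it was proposed with earlier results of these data known.

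The mitochondrial ribosome translates the few messenger RNAs that mitochondrial DNA still encodes, all of them for membrane subunits of the respiratory chain and ATP synthase. Its RNA comes from mitochondrial DNA, while all of its proteins are encoded in the nucleus, made in the cytosol and imported. Some of these proteins descend from bacterial ribosomal proteins and others exist only in mitochondria. The genes are active in nearly every cell, and neurons depend on the respiratory chain that the ribosome helps to build.

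RNA came from 3 transgenic embryos and 3 wild-type littermates, all male, of strain C57BL/6J, at embryonic day 15. The transgenic mice carried the bacterial artificial chromosome clone RP24-333C15, which spans Cyfip1, introduced by pronuclear injection and found by PCR of tail DNA. The labels name no promoter that would limit the transgene to a cell type, and the number of founder lines is not given in the sources used here. Cyfip1 itself was not analysed here, so the genotypes were not checked against its level. Each embryo had its own Illumina MouseRef-8 bead array, and with 3 arrays a group the precision is limited throughout. Values are the log2 intensities as the authors normalized them, and every difference is transgenic minus wild-type on that log2 scale. Probes differ in how brightly they bind, so the levels of different genes are not compared.

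Some embryos stood apart in markers of other tissues. Transgenic sample 1 had a summed linear level of 29165 over 17 skeletal muscle markers and wild-type sample 3 one of 8078, while the other 4 embryos lay between 2372 and 2994. Wild-type sample 2 reached 24057 over 14 midbrain and hindbrain markers, and the rest 3166 to 10811. Of these 14, 11 lay above the median of all probes, and single markers did not all follow the sum. Gbx2, for example, was lowest in wild-type sample 2, at 7.29, and highest in wild-type sample 3, at 11.80. Choroid plexus markers, 10 in all, summed to 33040 in transgenic sample 3 and to 1679 to 15915 in the rest. Of 11 markers of cortex, 8 had a named probe and 6 of those lay above the median of all probes. The 8 summed to 4296 in transgenic sample 3, 5131 in wild-type sample 2 and 7034 to 10569 in the other embryos. Single cortex markers did not all follow this order. The cortical factor Bcl11b ranged from 11.43 to 12.47. Tbr1, a factor of early cortical neurons, was at 7.09 in wild-type sample 2 and between 9.09 and 11.16 in the other embryos. Lhx2, in contrast, was at 9.51 in wild-type sample 2 and between 8.05 and 9.57 in the other embryos. In bulk RNA, fewer cells of a type and less RNA per cell cannot be told apart. Animal numbers under 100 belong to transgenic sample 1 and wild-type sample 3, and numbers over 200 to the other 4 embryos. The labels do not say what the ranges mean.

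The promoters of these genes are shown first, because some sequence features were more common in them than in other promoters, though none of these was found in most members. Windows from 250 bases before to 50 bases after the start of transcription were taken from RefSeq (mouse build GRCm38.p6), where 67 of the 76 genes matched, with 73 windows. The ETS core word, CCGGAAG or its reverse complement CTTCCGG, is the site of GABP, a regulator of nuclear genes for mitochondria. NRF1 is another such regulator, and its palindromic word is the first run of capitals in the Mrpl32 stretch printed here. YY1 was searched as AAGATGGC or GCCATCTT, the GC box as GGGCGG or CCGCCC and the TATA box as TATAAA or TTTATA, all on both strands. ETS and GC box words may overlap, as they do in the Mrpl17 promoter.

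5 stretches are printed in lower case from 5′ to 3′ on the strand of the named gene, with the searched words in capitals. Mrpl17 had the largest positive difference between the groups and Mrps36 was the only member whose transgenic values all lay below the wild-type ones. For both, the 250 bases before the start are given. Mrpl43, Mrpl32 and Mrps11 are transcribed away from a close neighbour, and only the bases between both start sites are given.
Mrpl17 (chr7:105811088-105811337, minus strand): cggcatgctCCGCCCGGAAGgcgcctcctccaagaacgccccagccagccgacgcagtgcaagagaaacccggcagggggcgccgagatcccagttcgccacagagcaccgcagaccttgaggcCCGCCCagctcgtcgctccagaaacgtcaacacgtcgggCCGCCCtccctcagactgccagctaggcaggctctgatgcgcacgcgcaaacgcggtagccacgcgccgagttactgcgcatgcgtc
Mrps36 (chr13:100744660-100744909, minus strand): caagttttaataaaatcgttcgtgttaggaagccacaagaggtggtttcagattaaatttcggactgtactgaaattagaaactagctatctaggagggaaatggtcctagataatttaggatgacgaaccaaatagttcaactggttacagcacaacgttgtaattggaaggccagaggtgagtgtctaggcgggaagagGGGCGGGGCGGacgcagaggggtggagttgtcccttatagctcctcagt
Mrpl43 (chr19:45006443-45006557, minus strand): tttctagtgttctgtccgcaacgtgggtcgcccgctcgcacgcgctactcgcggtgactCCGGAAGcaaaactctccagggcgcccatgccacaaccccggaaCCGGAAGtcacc
Mrpl32 (chr13:14613038-14613241, minus strand): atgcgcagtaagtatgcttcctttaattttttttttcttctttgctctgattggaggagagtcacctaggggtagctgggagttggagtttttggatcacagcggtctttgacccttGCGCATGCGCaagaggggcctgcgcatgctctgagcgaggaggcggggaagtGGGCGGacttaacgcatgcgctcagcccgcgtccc
Mrps11 (chr7:78783090-78783130, plus strand): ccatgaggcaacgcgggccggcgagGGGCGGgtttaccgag

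The ETS core was found in a promoter of 26 of the 67 members, or 38.8%, against 19.8% of 7384 array genes with a probe above the median of all probes and 12.9% of all 17492 protein-coding genes with a window. It was in 15 of 41 Mrpl and 11 of 26 Mrps genes. The YY1 word was found in 12 members, 17.9%, against 5.32% of the bright array genes and 3.57% of all. The NRF1 word was rare everywhere, in 3 members, 4.48%, against 2.22% and 1.47%. GC boxes were in 50.7% of members, below the 69.9% of bright array genes and close to the 49.2% of all. The TATA word, counted anywhere in the window on either strand, was in 7.46%, against 9.02% and 14.8%. In the members it began at positions -190 to -68 relative to the start. In Mrps36 and Mrps11 the printed stretches hold GC boxes and no other searched word. A match is a description of letters, and binding of a factor was not measured.

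Members often start close to a gene that runs the other way. 23 of the 67 members, 34.3%, had the start of a protein-coding gene on the opposite strand within 1000 bases upstream, against 13.1% of bright array genes and 8.48% of all. Mrpl46 of the large subunit and Mrps11 of the small subunit face away from each other with starts 42 bases apart. Mrps12 starts 147 bases from Sars2, which encodes the mitochondrial seryl-tRNA synthetase, and Mrpl43 starts 116 bases from Twnk, the helicase of mitochondrial DNA. The members lie on 17 chromosomes. Chromosome 7, which carries Cyfip1, holds 6 of them, and none is among the 20 protein-coding genes on either side of Cyfip1.

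**Figure D1:**
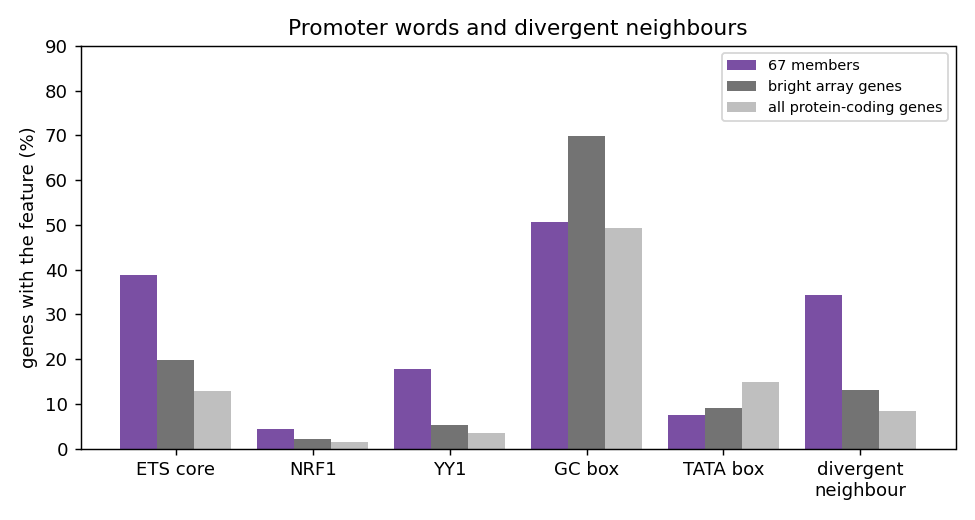
Percent of genes with each promoter word, or with a divergent neighbour within 1000 bases, for 67 members (purple), array genes with a probe above the median (dark grey) and all protein-coding genes (light grey). ETS core, YY1 and divergent neighbours are more common among the members, at 38.8%, 17.9% and 34.3%, while GC boxes are less common than among bright array genes.

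Transgenic against wild-type is the only contrast in the design, and it bears on RNA levels before birth in carriers of the clone that spans Cyfip1. Added Cyfip1, any other sequence on the clone and its insertion site cannot be told apart. The genes of the mitochondrial ribosome differed little. 0 of the 76 passed limma's test at an adjusted p under 0.05, and the smallest adjusted p among them was 0.759. Across all probes of the array 0 of 25697 passed, a background of 0%. At an unadjusted p under 0.05 limma had 1 member higher, Mrpl17, and 1 lower, Mrps36, where 3.21% of all named genes were higher and 3.68% lower at that level, so the members' count is not above the background. 69 of the 76 differences lay within 0.2 of zero, against 77.3% of all named genes. They ran from -0.21 to 0.37, a fold change of 0.867 to 1.29.

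The differences leaned towards higher values. The difference was positive in 52 members and negative in 24, with a median of 0.06. Among all named genes 46.4% were positive, with a median of -0.01, and among those above the probe median 44.9%. When only the arrays' medians were made equal, in place of the authors' normalization, 62 members were positive and 14 negative, with 42.3% of all genes positive. That was the highest count among the alternatives. The lowest came without wild-type sample 3, with 47 members positive and 29 negative, and 47.4% of all genes positive. In 9 members all transgenic values lay above all wild-type values, where 5.5% of all named genes and 6.26% of those above the probe median did. In 1 member all lay below, where 7.02% and 8.27% did. Markers of microglia and macrophages also separated the groups, with 12 of 13 on the array, all 12 above the probe median, and a summed level of 5445 to 5995 in transgenic and 2554 to 4432 in wild-type embryos. The 10 meningeal and fibroblast markers, all above the probe median, separated them as well, at 7461 to 25345 in transgenic and 2712 to 7325 in wild-type embryos. Dividing cell markers, 9 of 12 on the array and 8 above the probe median, overlapped between the groups. Within each range of animal numbers their sum was higher in transgenic embryos. It was 13052 against 10716.5 under 100, and 6334 and 6367 against 4514 and 4624 over 200. The part of these lists in the members' values was not tested. The median SD of a member over the 6 arrays was 0.116, against 0.130 for all named genes and 0.195 for those above the probe median. The median SD of 22 markers of mitochondrial content was close to it, at 0.112.

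**Figure D2:**
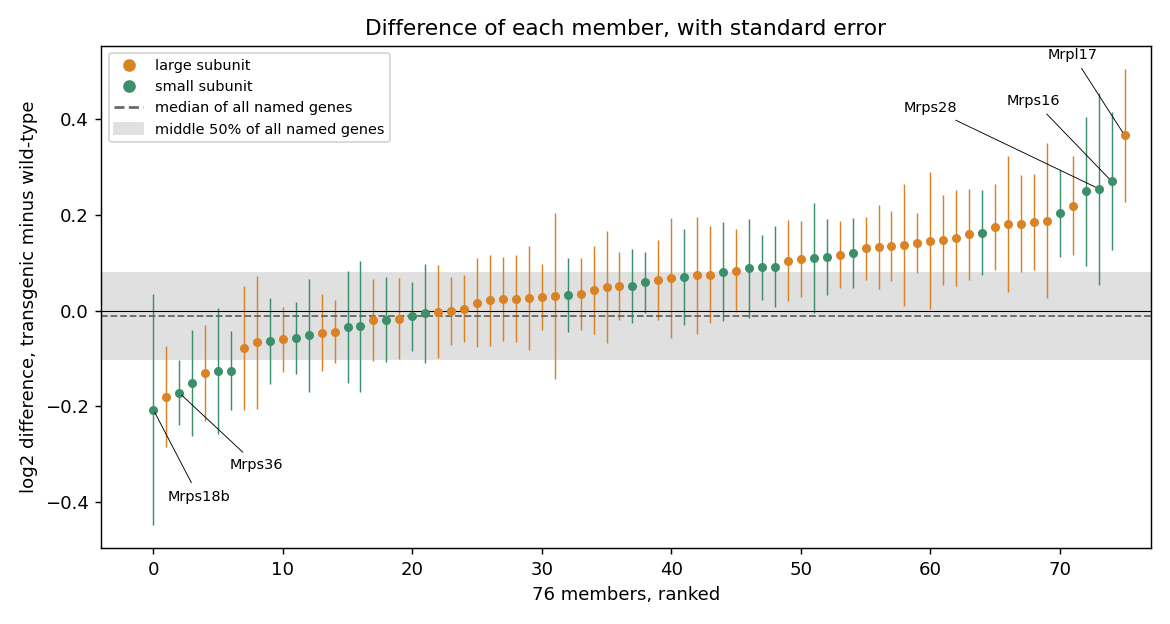
Difference between groups (log2, transgenic minus wild-type) of the 76 members in rank order, with standard errors, for large-subunit (orange) and small-subunit genes (green). The grey band holds the middle 50% of all named genes, and the members run from -0.21 (Mrps18b) to 0.37 (Mrpl17) with more points above 0 than below.

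Both subunits had more genes above 0 than below, and a difference between their shares was not tested. 36 of 47 Mrpl genes lay above 0, with a median of 0.06, and 16 of 29 Mrps genes, with a median of 0.05. When single samples were left out the large-subunit median stayed between 0.058 and 0.077, while the small-subunit median was 0.012 when wild-type sample 3 was dropped and 0.026 when wild-type sample 1 was. Among the 4 animals numbered over 200 the medians were 0.069 and 0.024. To set the subunits side by side in each embryo, every gene was expressed relative to its own 6-array mean and averaged. The large-subunit mean was 0.036, 0.019 and 0.047 in transgenic samples 1, 2 and 3 and -0.065, 0.008 and -0.045 in wild-type samples 1, 2 and 3. The small-subunit mean was 0.026, 0.015 and 0.011 in the transgenic and -0.063, 0.030 and -0.018 in the wild-type samples. Transgenic and wild-type embryos thus did not overlap for the large subunit, and they did for the small subunit, where wild-type sample 2 was highest of all.

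The large-subunit mean less the small-subunit mean was 0.017 ± 0.017 in transgenic and -0.017 ± 0.013 in wild-type embryos (SD, n = 3 each), a gap of 0.033. Transgenic embryos ran from 0.004 to 0.036 and wild-type embryos from -0.027 to -0.002, without overlap. No p is given for these means, since the genes were chosen with earlier results of these data known. The symbols do not follow the structure of the ribosome in every case. Mrps30 and Mrps18a are placed in the large subunit of the mammalian particle, and Mrps36 is now known as a component of the 2-oxoglutarate dehydrogenase complex. With the genes placed by structure the gap was 0.024 and the groups overlapped, since wild-type sample 1 stood at 0.008 and transgenic sample 1 at -0.006. With only the members above the probe median the gap was also 0.024, and the groups again overlapped.

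**Figure D3:**
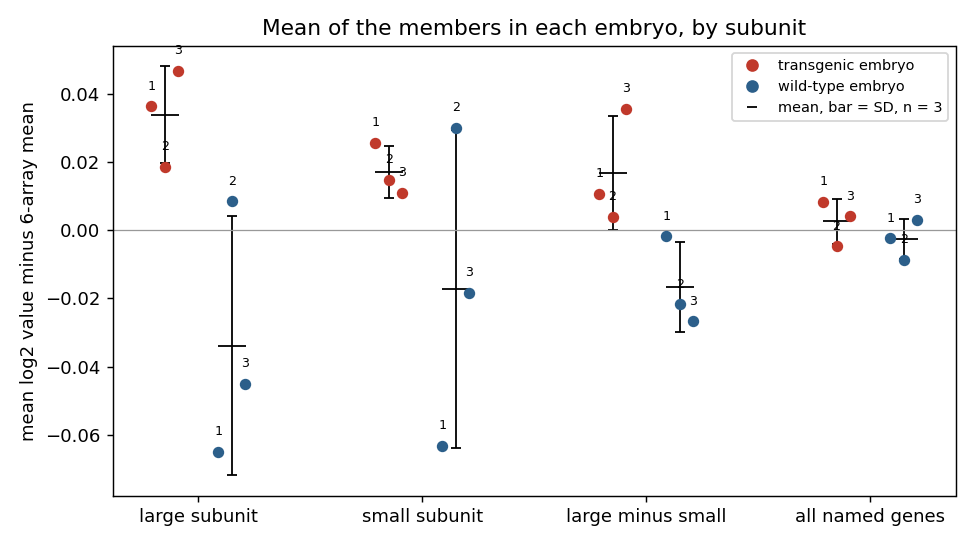
Mean log2 value relative to the 6-array mean, for 47 large-subunit genes, 29 small-subunit genes, their difference and all 16593 named genes, in each numbered transgenic (red) and wild-type (blue) embryo, with group mean and SD. The groups separate for the large subunit and for the difference, and overlap for the small subunit.

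A second division is by descent, and no difference between its classes was tested. 36 of 47 genes with a bacterial counterpart lay above 0 (median 0.08), and 16 of 28 mitochondria-specific genes did (median 0.02), with Mrps36 in neither class. The mean of the first class less that of the second was 0.086 in transgenic sample 1, the embryo with the most muscle marker RNA, and 0.004 and -0.005 in the other transgenic samples. In the wild-type samples it was -0.034, -0.048 and -0.003. Transgenic sample 3 lay inside the wild-type range. The part of the muscle markers in this was not tested.

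**Figure D4:**
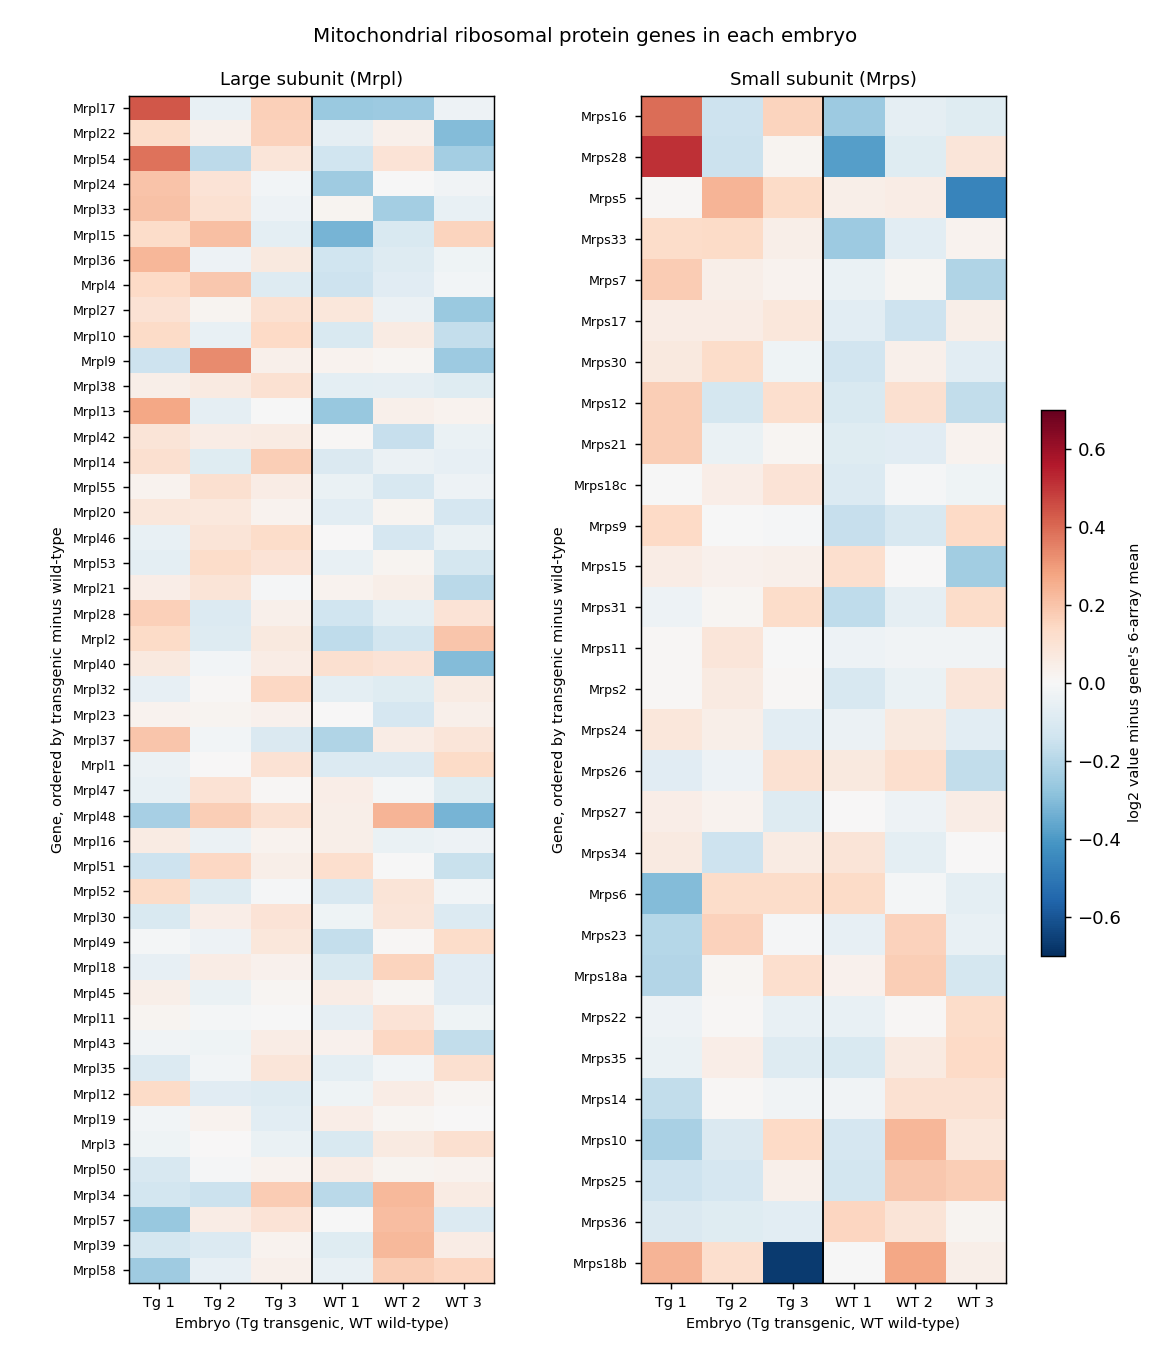
Each member (rows, ordered by difference within its subunit) in each embryo (columns, Tg transgenic and WT wild-type), as log2 value minus the gene's 6-array mean. Most cells are pale, and the strongest are Mrps18b in transgenic sample 3, Mrps28 in transgenic sample 1 and Mrps5 in wild-type sample 3.

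Of the large subunit, Mrpl17, a protein with a bacterial counterpart, stood furthest from 0. It was at 11.63, 11.14 and 11.36 in transgenic and 10.94, 10.94 and 11.16 in wild-type samples 1 to 3. Transgenic sample 2 lay just below wild-type sample 3, so the groups overlapped. The difference was 0.37 (SE 0.14, limma adjusted p = 0.759), and it was 0.47 between the animals numbered under 100 and 0.32 among those over 200. Without transgenic sample 1 the difference was 0.24.

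Mrpl38, a mitochondria-specific protein of the central protuberance, had the smallest p among the members whose transgenic values all lay above. It was at 11.19, 11.21 and 11.25 in transgenic and 11.08, 11.09 and 11.06 in wild-type samples. The groups did not overlap, and the difference was 0.14 (SE 0.06, limma adjusted p = 0.759). Mrpl55, Mrpl42 and Mrpl20 had separate groups as well, with differences of 0.13 (SE 0.07), 0.14 (SE 0.07) and 0.12 (SE 0.07), none of which passed. Without wild-type sample 2 Mrpl42 stood at 0.088. Mrpl42 is found only in mitochondria, and Mrpl20 has a bacterial counterpart.

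The stalk of the large subunit recruits translation factors. Its repeated protein Mrpl12 differed by -0.02 (SE 0.09) and Mrpl10, which anchors it, by 0.15 (SE 0.09), and the sign of Mrpl12 was not stable between settings. Mrpl11, the third gene at the stalk, stood at -0.001 (SE 0.07), so 1 of 3 lay above 0. The 5 genes Mrpl22, Mrpl23, Mrpl24, Mrpl45 and Mrpl47 belong to the tunnel through which new proteins leave, and all lay above 0, from 0.004 to 0.22. Mrpl22, which lines the tunnel, was at 10.72, 10.62 and 10.75 in transgenic and 10.52, 10.62 and 10.28 in wild-type samples. Wild-type sample 3 was lowest and wild-type sample 2 was level with transgenic sample 2. Its difference was 0.22 (SE 0.10, limma adjusted p = 0.759), or 0.12 without wild-type sample 3.

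Around the peptidyl transferase centre, where peptide bonds form, 4 of the 5 genes Mrpl2, Mrpl3, Mrpl4, Mrpl16 and Mrpl27 lay above 0, with a median of 0.07. Mrpl27, which reaches into that centre in bacteria, differed by 0.15 (SE 0.10). Of the central protuberance, Mrpl18, Mrpl38, Mrpl40, Mrpl46 and Mrpl48 were grouped, and all 5 lay above 0 (median 0.07). The group is not a full list of that region, and Mrpl58, left out of it, stood at -0.18 (SE 0.11). In this group wild-type sample 3 stood lowest, at a mean of -0.167 relative to the 6 arrays, and the other embryos between -0.046 and 0.084. Mrpl48 was at 10.32 in wild-type sample 3, 10.41 in transgenic sample 1 and 10.68 to 10.88 elsewhere, a difference of 0.03 (SE 0.17) whose sign turned in several settings. These role groups were formed after the values were seen.

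Mrpl58, a peptidyl-tRNA hydrolase that became a ribosomal protein, was among the members that leaned lower. It was at 8.97, 9.17 and 9.26 in transgenic and 9.17, 9.40 and 9.37 in wild-type samples. Transgenic sample 1 was lowest, the groups overlapped, and the difference of -0.18 (SE 0.11) did not pass (limma adjusted p = 0.777). It was -0.099 without transgenic sample 1.

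Of the small subunit, Mrps33, a mitochondria-specific protein, was at 12.84, 12.85 and 12.75 in transgenic and 12.46, 12.64 and 12.74 in wild-type samples. The groups did not overlap, though samples 3 of both groups were nearly level. The difference was 0.20 (SE 0.09, limma adjusted p = 0.759), and a second probe gave 0.18. Mrps7, which helps to assemble the head of the subunit in bacteria, differed by 0.16 (SE 0.09), Mrps17 by 0.12 (SE 0.07) and Mrps18c by 0.09 (SE 0.07). Their groups were separate too, and none passed. Single arrays moved these values as well, Mrps33 to 0.13 without wild-type sample 1, Mrps7 to 0.098 without wild-type sample 3 and Mrps17 to 0.078 without wild-type sample 2. A second Mrps7 probe had the opposite sign, at -0.07. The ninth member with separate groups was Mrps11, at 0.06 (SE 0.06), and its divergent partner Mrpl46 differed by 0.11 (SE 0.08). A second Mrps11 probe gave 0.18 (SE 0.08), also with separate groups, and did not pass (limma adjusted p = 0.759).

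Mrps12 lies at the decoding centre, where codons are read, and differed by 0.11 (SE 0.11). Its divergent neighbour Sars2 differed by -0.14 (SE 0.10). Mrpl43 and its neighbour Twnk stood at -0.002 (SE 0.10) and -0.11 (SE 0.11). Mrps5, on the path by which messenger RNA enters, was at 9.55, 9.78 and 9.68 in transgenic and 9.59, 9.60 and 9.08 in wild-type samples. Wild-type sample 3 alone was low, and the other 5 embryos lay between 9.55 and 9.78. The difference was 0.25 (SE 0.16), or 0.080 without wild-type sample 3, and a second Mrps5 probe gave 0.01.

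Mrps18a, Mrps18b and Mrps18c are paralogues that descend from a single bacterial protein and take different places in the mitochondrial ribosome. Mrps18a differed by -0.05 (SE 0.12), with a sign that turned when wild-type sample 2 or transgenic sample 1 was left out. Mrps18b was the member with the largest spread over the 6 arrays (SD 0.35). It was at 10.26, 10.14 and 9.35 in transgenic and 10.02, 10.29 and 10.06 in wild-type samples, so transgenic sample 3 alone was low. A second Mrps18b probe showed the same embryo lowest, at 7.72 against 8.09 to 8.66 in the other 5. The difference was -0.21 (SE 0.24) by the first probe and 0.05 by the second, and 0.08 by the first without transgenic sample 3. That embryo also had the most choroid plexus marker RNA, whose part in this was not tested.

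**Figure D5:**
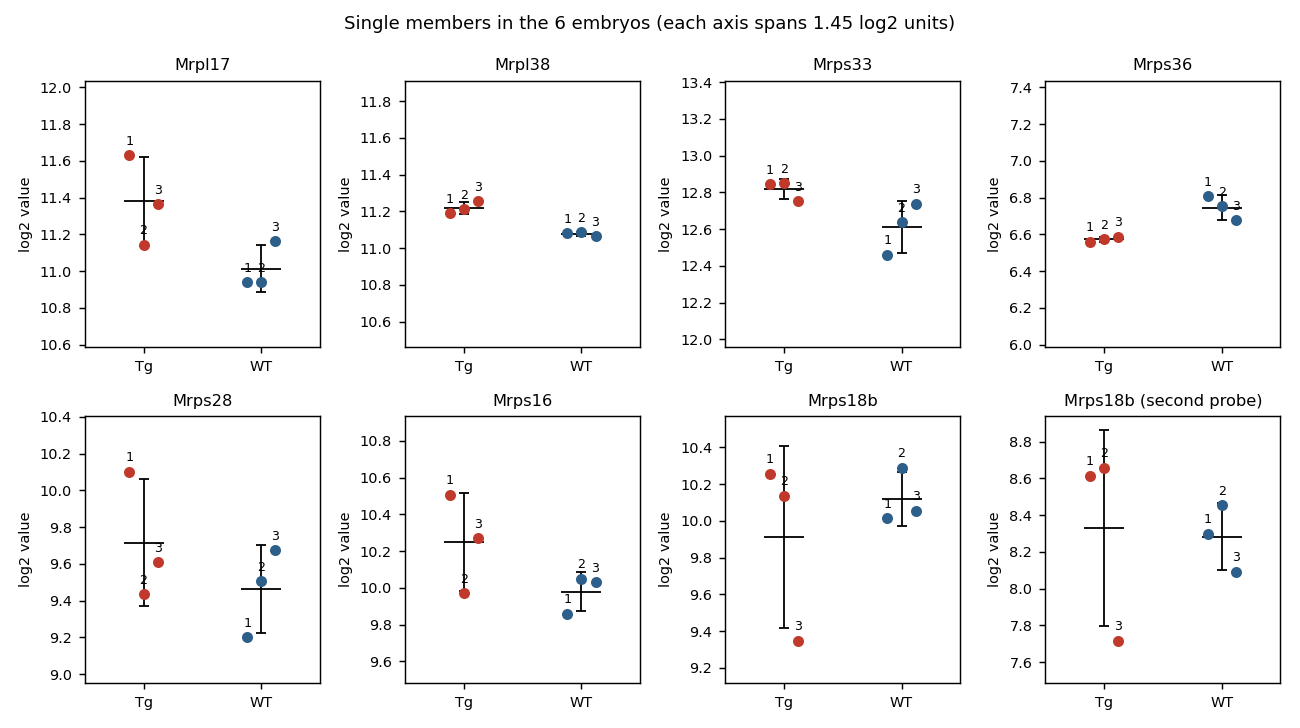
Log2 values of single members in the numbered transgenic (Tg, red) and wild-type (WT, blue) embryos, with group mean and SD (n = 3 each). Every axis spans the same range, and transgenic sample 3 is low in both Mrps18b probes. The groups of Mrpl38 and Mrps36 are narrow. The Mrps36 probe is dimmer than all but 2.84% of the probes, so its spread is not set against that of Mrpl38.

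Mrps36 was the only member with all transgenic values below all wild-type values. It was at 6.56, 6.57 and 6.59 in transgenic and 6.81, 6.75 and 6.68 in wild-type samples. The difference was -0.17 (SE 0.07, limma adjusted p = 0.759). Its probe was dimmer than all but 2.84% of the probes on the array, and the tables used here hold no measure of detection, so whether it was above background was not tested. The dimmest members after it were Mrpl21, Mrpl19, Mrpl32 and Mrps14, with means between 6.67 and 6.74 and differences of 0.08, -0.04, 0.06 and -0.13. Together with Mrpl45 they are the 6 members at or below the median of all probes, and 70 lay above it. The brightest probes were those of Mrps33, Mrps24, Mrps17, Mrpl23 and Mrpl13. Mrps24, at the messenger RNA entry, differed by 0.03 (SE 0.08), Mrpl23 by 0.05 (SE 0.07) and Mrpl13 by 0.14 (SE 0.13). Without wild-type sample 2 Mrpl23 stood at 0.0066, and Mrpl13 stood at 0.036 without transgenic sample 1 and at 0.038 without wild-type sample 1.

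Single embryos rather than groups held the larger deviations. Over all members, 13 values lay more than 0.3 from the gene's 6-array mean, with 5 from transgenic sample 1 and 4 from wild-type sample 3. Transgenic sample 1 was high for Mrpl17, Mrpl54, Mrps16 and Mrps28. Mrps28, a relative of the bacterial protein S1, was at 10.10 there and at 9.20 to 9.68 elsewhere, and its difference was 0.25 (SE 0.20), or 0.061 without this embryo. Mrps16, another protein with a bacterial counterpart, was at 10.51 there and at 9.86 to 10.27 elsewhere, with a difference of 0.27 (SE 0.14), or 0.14 without this embryo. Mrpl54 was at 11.56 there and at 10.94 to 11.27 elsewhere. Its difference of 0.19 (SE 0.16) became -0.03 among the 4 animals numbered over 200. The same embryo had the most muscle marker RNA, and 10 meningeal and fibroblast markers summed to 25345 there and to 2712 to 8063 elsewhere. The part of either in these values was not tested.

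Across members, transgenic sample 1 held the highest value for 19 and the lowest for 13. Wild-type sample 1 was lowest for 28 members and wild-type sample 3 for 21, while transgenic sample 2 was lowest for 1. Wild-type sample 2 was highest for 15, more than transgenic sample 2, with 12, or transgenic sample 3, with 10. The lowest values thus lay mostly in wild-type samples 1 and 3. Averaged over all members, wild-type sample 2 stood at 0.017, level with transgenic sample 2.

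Several probes of a gene did not always give the same sign. Of the 22 genes with several probes, 11 had probes of both signs, and in 5 of these the probes were more than 0.2 apart. Besides Mrps18b and Mrps7 these were Mrps10, with -0.13 by its brightest and 0.17 by its dimmest probe, Mrpl49, with 0.02 and -0.19, and Mrpl13, with 0.14 and -0.07. For Mrps10 and Mrpl13 the probe of opposite sign lay below the median of all probes. Their remaining probes had the sign of the brightest, at -0.12 for Mrps10 and 0.07 for Mrpl13. For Mrpl49 the remaining probes were negative, at -0.015 and -0.12, so only its brightest probe was positive. All Mrpl49 probes lay above the median of all probes.

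Genes that work with the mitochondrial ribosome were examined in 7 lists, and in 6 of them the median difference was below 0. The median of all named genes was also below 0, at -0.01, with 46.4% of them above 0. For named genes above the probe median it was -0.03, with 44.9% above 0. The list of mitochondrial content, at -0.001, lay above both medians, and that of mitochondrial DNA expression, at -0.01, lay close to the first. In the 7 lists 0 genes passed limma's adjusted threshold, as across the whole array. At an unadjusted p under 0.05 limma had 1 of 23 assembly factors and 1 of 17 synthetase-list genes higher. In the other lists 0 genes were higher at that level, and in all 7 lists 0 were lower. Of all named genes 3.21% were higher and 3.68% lower. Of 4 ribosomal proteins named outside the Mrp series, 2 lay above 0, with Dap3 at 0.13 (SE 0.11) and Ptcd3 at -0.08 (SE 0.09). 9 of 23 assembly factors lay above 0 (median -0.04). Mterf4, which guides an RNA methyltransferase to the large subunit, stood at 0.18 (SE 0.06). Rbfa, which matures the small subunit, stood at 0.26 (SE 0.11). Across the alternative runs Mterf4, a gene with 3 probes, ranged from 0.028 to 0.22, and Rbfa, with 2 probes, from 0.10 to 0.33. 5 of 14 translation factors lay above 0 (median -0.06), with the release factor Mtrf1l at 0.24 (SE 0.10) and the translational activator Taco1 at 0.12 (SE 0.07).

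4 of 17 genes that charge mitochondrial tRNAs lay above 0 (median -0.06), with Vars2 for valine at 0.23 (SE 0.08) and Qrsl1 of the glutamine pathway at -0.32 (SE 0.14). Of the genes that copy and express mitochondrial DNA 7 of 16 did (median -0.01), with the nuclease Mgme1 at 0.12 (SE 0.07) and the DNA-binding protein Ssbp1 at 0.26 (SE 0.15). 3 of 13 regulators of mitochondrial biogenesis did (median -0.06), with Gabpa, a subunit of GABP, at 0.21 (SE 0.12) and the coactivator Ppargc1a at -0.35 (SE 0.20). Of 22 markers of mitochondrial content 11 lay above 0 and 11 below (median -0.001), with the chaperonins Hspe1 at 0.15 (SE 0.07) and Hspd1 at 0.24 (SE 0.12). Whether these lists differ from the ribosomal proteins was not tested.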

How the data were processed

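Expression was measured on 6 Illumina MouseRef-8 arrays, with 200 ng of RNA per embryo, and the genotype label gave each sample's group. The deposited log2 values have identical quantiles in every array (median 7.18), and they equal quantile normalization of the log2 scanner intensities to within 5e-09. The deposited intensity values, on a linear scale with a minimum of 72.8, served for the alternatives. The submitters' processing notes list BeadStudio, with its version not given in the sources used here. lmFit and eBayes of limma 3.58.1 (R 4.3.3) were fitted to all 25697 probes without covariates, two-sided, with Benjamini-Hochberg adjustment across all of them. The fit was tested on simulated data, and no result of that check is given here. An exact permutation test of 3 against 3 cannot go below 0.1, so none was used. The labels give each sample its own animal number and call the controls littermates. The number of litters is not given in the sources used here.

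23978 probes had 1 gene and 1719 none. All 76 gene IDs were found in RefSeq (GRCm38.p6), with no symbol changed. The array tables name no genome build, so coordinates come from the RefSeq promoter windows.

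The members, lists and alternatives were chosen with earlier results of these data known. The members named were the 8 of smallest p in each direction with separate groups, the 5 brightest and 5 dimmest, the 4 most variable, those whose probes had opposite signs more than 0.2 apart, 7 genes of structural interest and, from each other list, the 2 genes of smallest p. Mrpl10, Mrpl22, Mrpl27, Mrpl43, Mrpl46, Mrpl48, Mrpl54, Mrpl58, Mrps11, Mrps16, Sars2 and Twnk were added after their values were seen.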

Additional observations from a re-analysis of the deposited data

How the results depend on the processing

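0 members passed limma's adjusted threshold in every alternative run, with 0 to 4 members at an unadjusted p under 0.05. Median scaling raised the median difference of all members to 0.12, of large-subunit members to 0.11 and of small-subunit members to 0.13, and shifted the median of all genes by -0.02. The small-subunit median ranged from 0.0118 to 0.0657 when single samples were left out, and was 0.0118 without wild-type sample 3. The count of members above 0, the large-subunit median and the gap between subunits otherwise kept their direction, at 47 to 62 members, 0.05 to 0.11 and 0.021 to 0.042. Signs turned for single genes, all with uncalled differences. Under median scaling these were Mrpl32 (-0.00198), Mrps18a (0.00717), Mrpl12 (0.016), Mrpl43 (0.033) and Ptcd3 (0.014). Among the 4 animals numbered over 200 they were Mrps24 (-0.029), Mrps12 (-0.00751) and Mrpl54 (-0.028). Without transgenic sample 1 and wild-type sample 2 they were Mrps10 (0.040), Mrps18a (0.112), Mrpl43 (0.083) and Dap3 (-0.00705). Array weights turned Mrps24 (-0.000757), and the mean of all probes turned Mrpl49 (-0.077) and Mrpl48 (-0.012). Leaving out single samples gave ranges of -0.378 to 0.0769 for Mrps18b, -0.0574 to 0.0910 for Mrpl49, -0.127 to 0.0394 for Mrps18a, -0.0938 to 0.0185 for Mrpl12, -0.123 to 0.157 for Mrpl48 and -0.0889 to 0.0704 for Mrpl43. The cause was not tested. No paired analysis was possible because the labels give no replicate number shared between the groups. A limma fit with the range of the animal numbers as a block left 0 members called, with 3 at an unadjusted p under 0.05 and a smallest adjusted p of 0.303. Only 3 arrays a group limit all of these values.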
